A study of Homo sapiens with 24 samples.

Results

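Thalidomide was compared with its control, dimethyl sulfoxide (DMSO), in 3 human triple-negative breast cancer cell lines, and the data described here are the 12 RNA-sequencing libraries of these 2 treatments among the 24 libraries of the series. All libraries labelled with either treatment were taken. The lines were MDA-MB-468, MDA-MB-157 and MDA-MB-231, each labelled as basal, as negative for the oestrogen and progesterone receptors and as free of HER2 overexpression. Cells received 0.05% DMSO by volume or 1000 nM Thalidomide, in both cases for 3 h, and each of the 6 groups held 2 libraries. The vehicle of the Thalidomide wells is not given in the labels. The labels do not say whether the 2 libraries of a group came from separate cultures. The p-values and confidence intervals therefore measure only the spread between these libraries, which may be technical. The remaining libraries of the series were treated with a small-molecule inhibitor or a degrader of BET bromodomain proteins, and cereblon ligands of the thalidomide family are a common part of such degraders. The comparison therefore asks what the ligand alone did to the transcriptome, which changes the 3 lines shared, and how large a change the measurements leave possible.

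Thalidomide binds cereblon (CRBN), the substrate receptor of a ubiquitin ligase made of the adaptor DDB1, the cullin scaffold CUL4A or CUL4B and the RING protein RBX1. Binding alters which proteins the ligase marks for the proteasome. Known neosubstrates are mostly zinc finger transcription factors, such as IKZF1, IKZF3 and SALL4, and their loss underlies the drug's effects on lymphoid cells and on the embryonic limb. Because the drug acts on protein stability, messenger RNA after a few hours reports on downstream transcription rather than on the neosubstrates themselves.

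No gene of the 14114 tested passed the adjusted threshold (limma across all genes, line as block, Benjamini-Hochberg adjusted p below 0.05, 0% of genes), and the lowest adjusted p was 0.127. At an unadjusted p below 0.05 stood 2461 genes (17.4%). Of these, 1226 were higher with Thalidomide (8.69% of all genes) and 1235 were lower (8.75%). The differences were small: 48 of the 2461 reached 1.2 fold and 2 reached 1.5 fold. The log2 differences of all genes had a 5th percentile of −0.11 and a 95th percentile of 0.14, and the median over all genes was 0.0038. All differences are on the scale of log2(FPKM + 1), where FPKM counts the fragments on a transcript relative to its length in kilobases and to the library's mapped fragments, and this scale understates changes of genes with low values. One library decides the count: without MDA-MB-231 Thalidomide replicate 2 the same test called 818 genes, 272 higher and 546 lower, of which 2 reached 1.5 fold and 0 reached 2 fold. The number at an unadjusted p below 0.05 was then 3847, and it was 1526 without MDA-MB-157 DMSO replicate 2, 1572 without MDA-MB-157 Thalidomide replicate 2, 1581 without MDA-MB-468 Thalidomide replicate 2, 947 without the whole of MDA-MB-157 and 837 without MDA-MB-468.

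**Figure D1:**
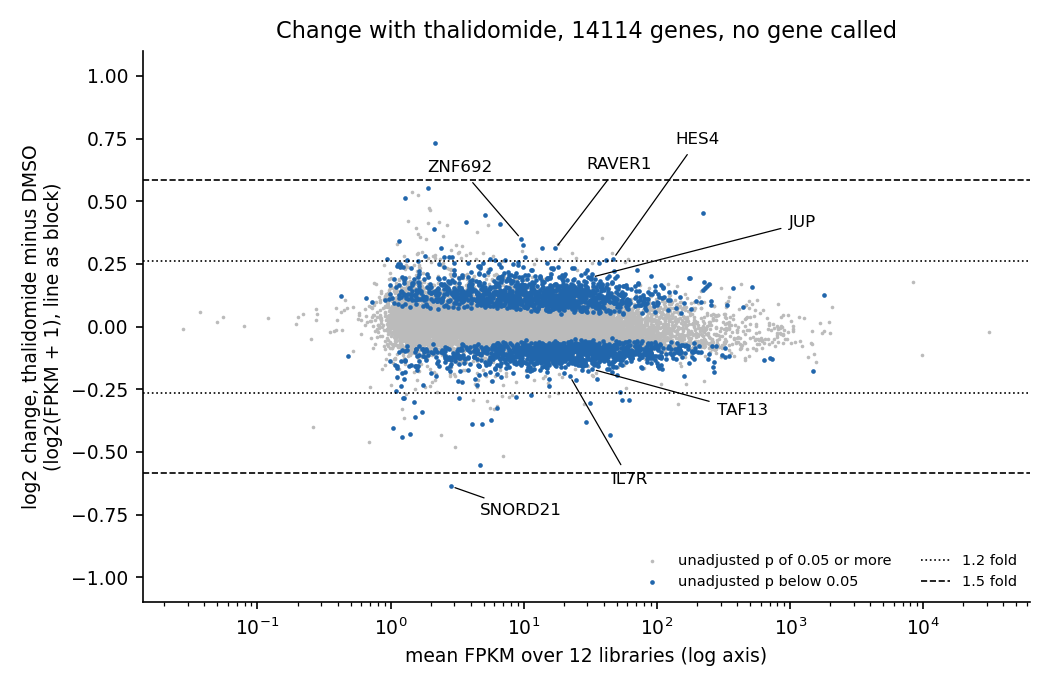
Each point is a gene, with its mean FPKM over the 12 libraries on a log axis and its log2 difference between Thalidomide and DMSO, fitted over 3 lines, on the vertical axis. Genes at an unadjusted p below 0.05 are blue, and dotted and dashed lines mark 1.2 fold and 1.5 fold; 48 of the 2461 blue points lie outside the dotted lines, and labels name genes described in the text.

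The small differences sorted genes by base composition, as set out below for 9540 genes, and stretches of 4 genes illustrate this. Picked by small p from the same data, the 4 are no test of the trend. Printed below are 120 bases from the longest coding exon of 4 genes, 2 protein-coding genes in each direction taken by smallest p from those described here, leaving out GATSL2, which has near-identical copies. Sequence and coordinates are those of GENCODE 29 on GRCh38, read 5′ to 3′ along the gene's strand, with every G and C in capitals. JUP, in exon 8 of 14 on the minus strand at chr17:41763092-41763211, and L1CAM, in exon 29 of 29 on the minus strand at chrX:153862720-153862839, were both higher with Thalidomide. TAF13, in exon 4 of 5 on the minus strand at chr1:109064550-109064669, and TRMT13, in exon 10 of 11 on the plus strand at chr1:100148050-100148169, were both lower.
JUP: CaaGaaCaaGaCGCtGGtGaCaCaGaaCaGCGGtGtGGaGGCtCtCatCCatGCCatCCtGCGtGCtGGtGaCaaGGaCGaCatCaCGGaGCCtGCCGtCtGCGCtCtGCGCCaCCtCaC
L1CAM: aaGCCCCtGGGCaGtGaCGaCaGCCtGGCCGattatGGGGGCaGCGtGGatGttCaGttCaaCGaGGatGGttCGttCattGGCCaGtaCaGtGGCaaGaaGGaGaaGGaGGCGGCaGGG
TAF13: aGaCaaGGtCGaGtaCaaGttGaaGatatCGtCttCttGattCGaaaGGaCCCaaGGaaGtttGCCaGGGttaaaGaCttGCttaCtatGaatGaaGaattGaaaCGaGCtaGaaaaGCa
TRMT13: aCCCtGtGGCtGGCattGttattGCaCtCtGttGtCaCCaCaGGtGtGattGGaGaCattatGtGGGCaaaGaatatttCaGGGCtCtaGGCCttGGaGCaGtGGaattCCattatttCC
The JUP stretch holds 73 G or C bases of 120 and the L1CAM stretch 71, against 48 in TAF13 and 56 in TRMT13. Over the whole coding sequence the shares of G and C were 62.3% in JUP, 59.7% in L1CAM, 39.5% in TAF13 and 40.5% in TRMT13. The TRMT13 stretch, at 46.7%, thus lay above the share of its gene.

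JUP, the junction protein plakoglobin, was among the higher genes with the smallest p. In MDA-MB-157 its values were 8.46 and 7.72 FPKM with DMSO and 9.32 and 10.1 FPKM with Thalidomide. In MDA-MB-231 they were 3.52 and 3.52 FPKM with DMSO and 4.18 and 3.78 FPKM with Thalidomide. In MDA-MB-468 they were 79.5 and 75.3 FPKM with DMSO and 87.2 and 92.2 FPKM with Thalidomide. Both Thalidomide libraries stood above both DMSO libraries in each line, and the fitted log2 difference was 0.20 (SE 0.037, 95% interval 0.12 to 0.28; limma, unadjusted p = 0.0002, adjusted p = 0.224). TAF13, a subunit of the general transcription factor TFIID, had the smallest p among the lower genes. Its DMSO values were 23.99 and 24.4 FPKM in MDA-MB-157 cells, 32.2 and 32.1 FPKM in MDA-MB-231 cells and 48.2 and 46.6 FPKM in MDA-MB-468. Its Thalidomide values were 20.5 and 20.8, 28.7 and 29.1, and 43.9 and 41.9 FPKM in the same order of lines. The groups did not overlap in any line, and the log2 difference was −0.17 (SE 0.024, 95% interval −0.22 to −0.12; limma, adjusted p = 0.127).

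The other genes named by rule, 8 in each direction by smallest p among genes of at least 5 FPKM with the same sign in all 3 lines, had an adjusted p of 0.224 each (limma). The higher ones were GATSL2, the adhesion molecule L1CAM, the splicing regulator RAVER1, TMEM184B, the dystroglycan gene DAG1, the leucine-degrading enzyme IVD, TMEM127 and the lysophospholipid acyltransferase MBOAT7. Their log2 differences ran from 0.10 in TMEM127 to 0.31 in RAVER1. The lower ones were the long non-coding RNA DLEU2, the tRNA methyltransferase TRMT13, the glycosyltransferase GALNT3, the adhesion molecule AMIGO2, the chromatin remodeller SMARCAD1, IQCB1, the spindle protein SPDL1 and the interleukin-7 receptor IL7R. Their log2 differences ran from −0.22 in DLEU2 to −0.12 in SPDL1. In each of these genes, and in JUP and TAF13, the groups did not overlap in any of the 3 lines. Over all genes, both Thalidomide libraries were above both DMSO libraries in all 3 lines for 273 genes (1.93%) and below for 269 (1.91%).

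RAVER1 shows the spread behind the larger of these values. Its DMSO values were 7.87 and 6.87 FPKM in MDA-MB-157 cells, 16.97 and 17.4 in MDA-MB-231 cells, and 21.9 and 21.2 in MDA-MB-468. With Thalidomide it stood at 10.2 and 9.96, at 22.4 and 17.4, and at 25.2 and 29.8 FPKM. In MDA-MB-231 the lower Thalidomide library was at the level of the higher DMSO library to 3 digits, so that line's difference rested on 1 library. IL7R stood at 42.5 and 47.8 FPKM with DMSO and 34.7 and 37.6 FPKM with Thalidomide in MDA-MB-157 cells. It stood at 15.6 and 15.4 against 13.6 and 14.03 FPKM in MDA-MB-231 cells, and at 11.4 and 12.03 against 11.1 and 10.2 FPKM in MDA-MB-468. The log2 difference of IL7R was −0.31 in MDA-MB-157 cells, −0.15 in MDA-MB-231 cells and −0.13 in MDA-MB-468.

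**Figure D2:**
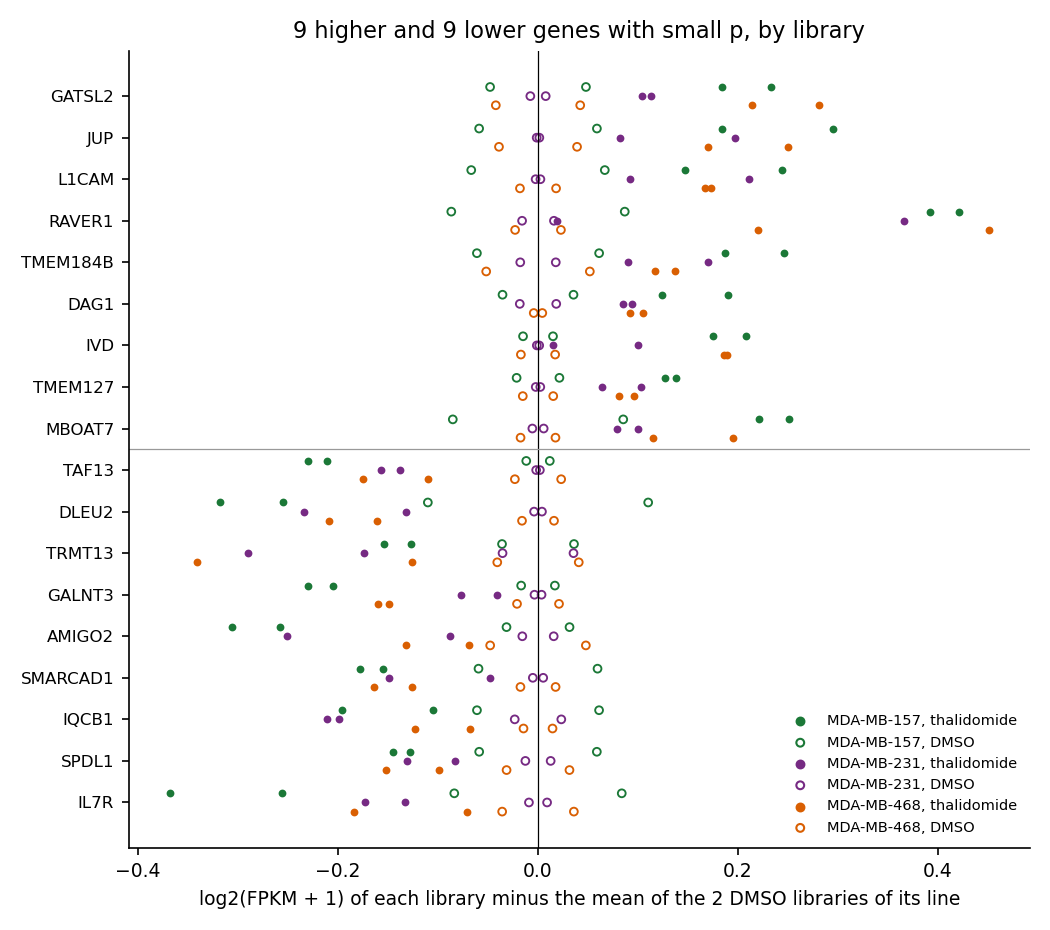
Points give log2(FPKM + 1) of each library minus the mean of the 2 DMSO libraries of its line, for the 9 higher genes (above the grey line) and the 9 lower genes described above. Open points are DMSO and filled points Thalidomide, coloured by line. In each gene and line the filled points lie on one side of the open ones, which the choice by small p favours. In some the distance is narrow, as for RAVER1 in MDA-MB-231 cells.

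The question of how large a change the data leave was addressed with the confidence intervals of the fit over 3 lines. Like the p-values, they rest on the spread between these libraries, which may be technical. They bound the change averaged over the lines, not the change in any 1 line. The 95% interval of a gene had a median half-width of 0.094 on the log2 scale, or 6.74%. It lay wholly within 1.2 fold either way for 12464 genes (88.3%), within 1.5 fold for 13960 (98.9%) and within 2 fold for 14101 (99.9%). Among 12046 protein-coding genes, 12025 had an interval within 1.5 fold and all 12046 had one within 2 fold. The protein-coding genes with the widest reach were RMI1, a helicase partner, at 1.75 fold, and the RNA-binding protein PCBP2, also at 1.75 fold. An interval that holds for all genes at once, at 0.05 divided by 14114, is wider: it lay within 1.5 fold for 11432 genes (81.0%) and within 2 fold for 13399 (94.9%). Fitted within 1 line, with the spread still shared by the 3 lines, the median half-width was 0.17 on the log2 scale (12.5%), and 94.4% to 95.1% of genes lay within 1.5 fold. These bounds are on the scale of log2(FPKM + 1), where the added 1 narrows those of genes with low values: with 0.1 added in its place, 10446 genes lay within 1.2 fold and 13612 within 1.5 fold. FPKM gives each gene relative to the whole library, so a change of all transcripts together would not be seen.

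The intervals were widest for short and weakly detected RNAs. Below 2 FPKM, 75.8% of 1943 genes had an interval within 1.2 fold, against 96.4% of 1016 genes between 50 and 100 FPKM. Of 164 small nucleolar RNAs (snoRNAs, guides of RNA modification), 12 had an interval within 1.2 fold and 119 within 1.5 fold. The 13 genes whose interval reached beyond 2 fold were 5 snoRNAs (SNORD57, SNORD18C, SNORD2, SNORD58C and SNORD37), the mitochondrial tRNAs MT-TT and MT-TS2, the immunoglobulin segment IGHV3-15, the antisense RNA CYP1B1-AS1, and the clone-named AC068056.1, AL139821.1, AL356791.1 and AC010884.2. None of the 13 was annotated as protein-coding. SNORD21 had the lowest log2 difference of all genes, −0.64 (95% interval −0.89 to −0.38; limma, adjusted p = 0.224). It stood at 2.83, 2.82, 2.95, 2.54, 5.16 and 4.94 FPKM in the 6 DMSO libraries and at 1.79, 0.995, 0.797, 1.01, 3.95 and 4.32 FPKM in the Thalidomide libraries, with the pair of MDA-MB-157 first, that of MDA-MB-231 second and that of MDA-MB-468 last. The groups did not overlap in any line. CYP1B1-AS1 overlaps CYP1B1 in part, and the library kit named in the labels is not described there as marking strand. Reads of the 2 genes may therefore not be told apart in the shared stretch.

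**Figure D3:**
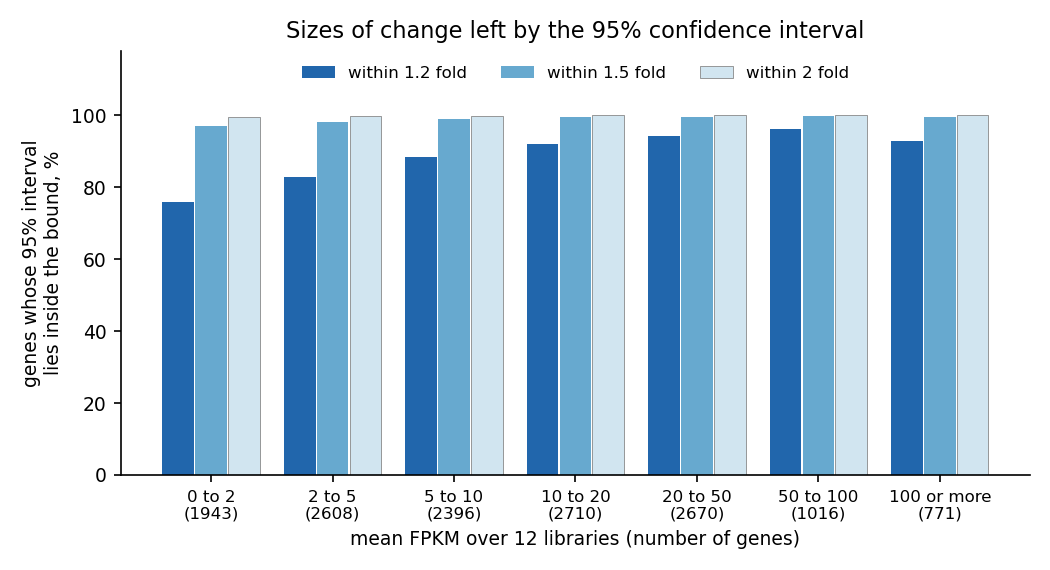
Bars give, for 7 ranges of mean FPKM with the number of genes in parentheses, the percentage of genes whose 95% interval of the Thalidomide difference lay within 1.2, 1.5 or 2 fold either way. The share within 1.2 fold was 75.8% below 2 FPKM and 96.4% between 50 and 100 FPKM.

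The direction of the small differences followed the G+C content of the transcripts, which was examined after seeing the data. Among 9540 genes of at least 5 FPKM with an annotated transcript, the pooled log2 difference and the median G+C content of a gene's transcripts had a Spearman correlation of 0.70 across genes, which are not independent replicates. The correlation was 0.62 in MDA-MB-157 cells, 0.25 in MDA-MB-231 cells and 0.80 in MDA-MB-468. In the fifth of genes with the lowest G+C content (28.99% to 42.16%), 3 genes were higher and 597 lower at an unadjusted p below 0.05, with a median log2 difference of −0.064. In the fifth with the highest (58.3% to 74.2%), 610 were higher and 3 lower, with a median of 0.085. Transcript length gave a Spearman correlation of 0.047 and mean level one of −0.14 in the same genes. In MDA-MB-231 cells the correlation with level was −0.24 and that with length 0.12, beside the 0.25 with G+C content.

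The same gradient was measured for each library as the slope of a gene's deviation from its line's mean against G+C content. With DMSO the slopes were 0.020 and −0.096 log2 per 10 percentage points in MDA-MB-157 cells, −0.0088 and −0.012 in MDA-MB-231 cells, and −0.038 and −0.060 in MDA-MB-468. With Thalidomide they were 0.025 and 0.051, 0.0073 and 0.014, and 0.028 and 0.070. Thalidomide libraries stood above DMSO libraries in every line, by 0.065 on average. No test is given for this difference, since the slope was chosen after the pooled differences were seen to follow G+C content. The 2 DMSO libraries of MDA-MB-157 differed from each other by more than the mean difference between treatments, and their own difference had a Spearman correlation of −0.73 with G+C content. What produced the gradient was not tested.

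**Figure D4:**
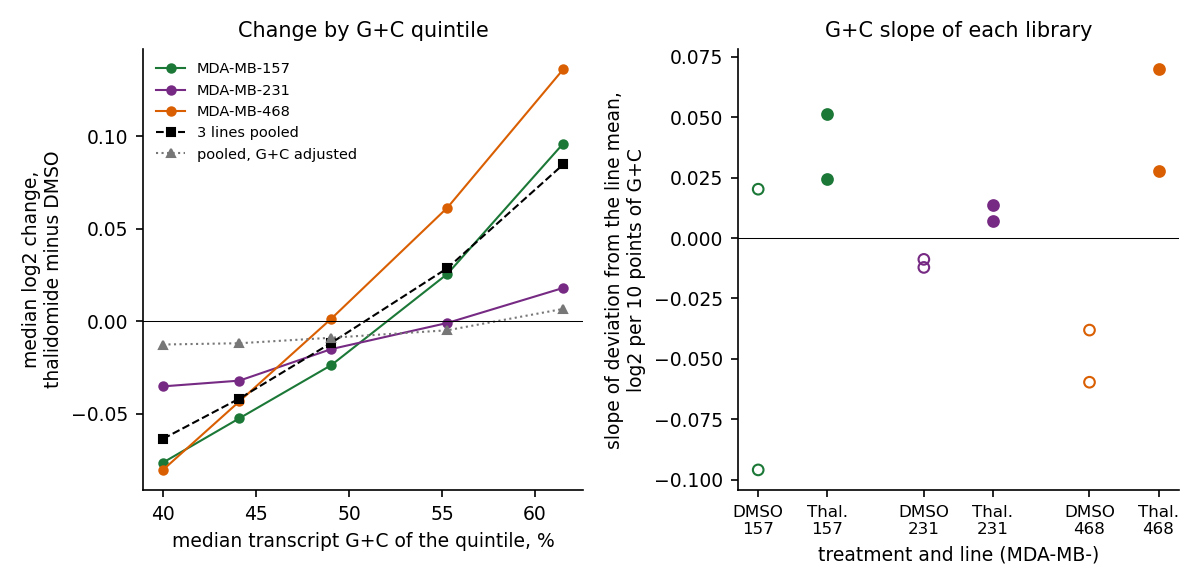
Left, the median log2 difference between Thalidomide and DMSO in 5 equal groups of 9540 genes by transcript G+C content, for each line, for the 3 lines pooled, and for the pooled fit after a G+C adjustment of each library. Right, the slope against G+C content of each library's deviation from its line mean, in log2 per 10 percentage points; every Thalidomide point lies above the DMSO points of its line, with 0.025 against 0.020 as the closest pair in MDA-MB-157 cells.

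After each library was adjusted for G+C content, 0 genes were called (limma, lowest adjusted p 0.561, 13951 genes), and 1189 (8.52%) stood at an unadjusted p below 0.05, of which 524 were higher and 665 lower. Of the 2449 such genes with a known G+C content before adjustment, 773 kept both the p below 0.05 and the sign. JUP had a log2 difference of 0.11 after the adjustment (unadjusted p = 0.00386) and TAF13 one of −0.11 (unadjusted p = 0.00123). The correlation of the difference across genes between MDA-MB-157 and MDA-MB-468 was 0.52 before and 0.17 after adjustment (Pearson's r), between MDA-MB-157 and MDA-MB-231 it was 0.25 and 0.19, and between MDA-MB-468 and MDA-MB-231 it was 0.29 and 0.24. The median half-width of the 95% interval was 0.085 after adjustment, and 99.2% of genes lay within 1.5 fold.

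The target of the drug and its ligase had log2 differences between −0.11 and 0.12. CRBN stood at 18.6 and 18.3 FPKM with DMSO and at 16.5 and 16.7 FPKM with Thalidomide in MDA-MB-157 cells. It stood at 13.2 and 13.1 against 12.02 and 13.95 FPKM in MDA-MB-231 cells, and at 15.9 and 15.3 against 14.6 and 14.4 FPKM in MDA-MB-468. The groups were apart in MDA-MB-468 and MDA-MB-157 and overlapped in MDA-MB-231 cells, and the log2 difference was −0.088 (95% interval −0.17 to −0.0090; limma, adjusted p = 0.257). The adaptor DDB1 (log2 difference −0.0066) and the scaffold CUL4A (0.0062) lay near 0, and their signs turned under other scalings. The intervals of DDB1 and CUL4A reached 1.062 and 1.048 fold at most, and that of RBX1 1.138 fold. Of the 14 genes of the ligase and its neddylation and deneddylation machinery, 2 were higher and 4 lower at an unadjusted p below 0.05, beside 8.69% and 8.75% of all genes, with a median of −0.054. The higher ones included the adaptor-associated DDA1 (0.099), and the lower ones the exchange factor CAND1 (−0.085) and the cullin modifier NEDD8 (−0.11). CRBN and CAND1 had transcript G+C contents of 38.4% and 38.1%. After the G+C adjustment 0 of the 14 were higher and 1 lower at that p, beside 524 higher and 665 lower of 13951 genes. Without 1 library the number lower ran from 0 (MDA-MB-157 Thalidomide replicate 1 left out) to 8 (MDA-MB-231 Thalidomide replicate 2 left out); it was 2 without MDA-MB-468 DMSO replicate 1, and 1 without MDA-MB-157 DMSO replicate 2, MDA-MB-157 Thalidomide replicate 2 or MDA-MB-468 Thalidomide replicate 2.

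Among 19 genes of cereblon neosubstrates and clients, 14 were tested, and IKZF1, IKZF3, SALL4, ZBTB16 and TP63 were not analysed here. Of the 14, 1 was higher and 2 lower at an unadjusted p below 0.05, beside 8.69% and 8.75% of all genes, and the median was −0.014. The higher one was the zinc finger gene ZNF692, whose protein is a reported target of cereblon ligands, with a log2 difference of 0.35 (95% interval 0.14 to 0.56; limma, adjusted p = 0.224). ZNF692 stood at 7.64 and 7.19 FPKM with DMSO and at 9.72 and 10.8 FPKM with Thalidomide in MDA-MB-157 cells, and at 8.22 and 7.18 against 9.31 and 9.08 FPKM in MDA-MB-231 cells. In MDA-MB-468 it stood at 8.86 and 10.1 against 9.89 and 16.5 FPKM, where the groups overlapped and 1 library carried the difference. The lower ones were ZFP91, a zinc finger neosubstrate (−0.074), and the lactate transporter SLC16A1, a client of cereblon (−0.054). After the G+C adjustment 1 of the 14 was higher and 0 lower at that p, beside 524 higher and 665 lower of 13951 genes. GSPT1, a translation termination factor, had an interval that reached 1.11 fold and CSNK1A1, casein kinase 1 alpha, one that reached 1.07 fold.

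The immediate-early genes, transcription factors and feedback phosphatases that respond within minutes to growth factor or stress signals, had the highest median of the 32 lists, 0.095. Of 21 measured, 19 had a positive difference, and 8 were higher and 0 lower at an unadjusted p below 0.05, beside 8.69% and 8.75% of all genes. The median was 0.13 in MDA-MB-157 cells, 0.028 in MDA-MB-231 cells and 0.15 in MDA-MB-468. JUND, an AP-1 subunit, stood at 19.4 and 16.6 FPKM with DMSO and at 24.02 and 22.98 FPKM with Thalidomide in MDA-MB-157 cells. It stood at 19.7 and 21.1 against 21.4 and 21.9 FPKM in MDA-MB-231 cells, and at 27.9 and 25.8 against 30.9 and 32.9 FPKM in MDA-MB-468. The groups of JUND did not overlap in any line, and its log2 difference was 0.23 (95% interval 0.12 to 0.35; limma, adjusted p = 0.224). The related JUNB and JUN had log2 differences of 0.18 and 0.14. The median G+C content of the list was 57.7%. After the G+C adjustment 4 members were higher and 0 lower at an unadjusted p below 0.05, with a median of 0.049. Over all 13951 genes so adjusted, 524 were higher and 665 lower at that p. Without 1 library the number higher ran from 4 (without MDA-MB-468 Thalidomide replicate 2) to 10, and it was 5 without MDA-MB-231 DMSO replicate 2 and without any of 3 libraries of MDA-MB-157, DMSO replicate 2 and Thalidomide replicates 1 and 2.

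The Notch pathway had 4 of 12 members higher and 0 lower at an unadjusted p below 0.05, beside 8.69% and 8.75% of all genes, with a median of 0.064. The target HES4 had a log2 difference of 0.27 (95% interval 0.14 to 0.40; limma, adjusted p = 0.224), the receptors NOTCH1 and NOTCH3 had 0.20 and 0.15, and the feedback inhibitor NRARP 0.17. After the G+C adjustment 3 of the 12 were higher and 0 lower at that p, with a median of 0.055. Over all 13951 genes so adjusted, 524 were higher and 665 lower. HES4 had the highest G+C content of the named genes, 74.2%, and a log2 difference of 0.12 after the G+C adjustment. The differences of NRARP were 0.40 in MDA-MB-157 cells, 0.011 in MDA-MB-231 cells and 0.11 in MDA-MB-468.

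Genes of S, G2 and M phase had 0 of 19 members higher and 6 lower at an unadjusted p below 0.05, beside 8.69% and 8.75% of all genes, with a median of −0.036. The lower members included the mitotic kinase AURKA (−0.094), cyclin A2, CCNA2 (−0.11), and CDK1 (−0.13). CDK1 stood at 90.3 and 91.6 FPKM with DMSO and at 84.9 and 83.9 FPKM with Thalidomide in MDA-MB-157 cells, and at 164 and 158 against 148 and 143 FPKM in MDA-MB-468. In MDA-MB-231 it stood at 160 and 159 against 130 and 165 FPKM, where the groups overlapped. The list's median G+C content was 45.4%. After the G+C adjustment 1 member was lower at that p, beside 665 of 13951 genes. With column totals scaling 2 members were higher and 4 lower, and without MDA-MB-157 Thalidomide replicate 2 or MDA-MB-468 Thalidomide replicate 2 the number lower was 3. Without the whole of MDA-MB-157 the number lower was 0, and without the whole of MDA-MB-468 it was 1. The proliferation marker MKI67, which the naming rule did not pick and which was chosen after its values were seen, stood at 72.0 and 79.4 FPKM with DMSO and at 142 and 67.9 FPKM with Thalidomide in MDA-MB-231 cells. Thus 1 library gave this gene the widest interval of the list, reaching 1.40 fold.

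The snoRNA host genes and the respiratory chain had medians below 0. Of 12 host genes, 0 were higher and 3 lower at an unadjusted p below 0.05, beside 8.69% and 8.75% of all genes, namely SNHG5 (−0.16), SNHG6 (−0.14) and SNHG1 (−0.12), with a list median of −0.055. Without MDA-MB-231 Thalidomide replicate 2, 6 of the 12 were lower at that p, and without MDA-MB-231 Thalidomide replicate 1 the median was −0.032. Without the whole of MDA-MB-157 1 host gene was lower at that p, and without the whole of MDA-MB-468 it was also 1. After the G+C adjustment 0 of the 12 were higher and 3 lower, with a median of −0.040, and SNHG1 was not among these. Over all 13951 genes so adjusted, 524 were higher and 665 lower. The lists that follow are counted before that adjustment. Of 21 nuclear genes of the respiratory chain, 0 were higher and 2 lower, with a median of −0.048. NDUFB3 and UQCRC2 were the 2. The ribosome biogenesis genes had 1 of 16 higher and 4 lower, among them WDR43 (−0.12), NOP58 (−0.092) and DKC1 (−0.059), around a median of 0.0011. Of 26 cytosolic ribosomal protein genes, 0 were higher and 1 lower (RPL7, −0.14), with a median of −0.017. The 14 small nuclear and related RNAs had a median of −0.11 with 0 higher and 1 lower, the spliceosomal RNU5A-1.

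Lists tied to the drug's clinical effects each had members in both directions at an unadjusted p below 0.05. Over all genes the shares were 8.69% higher and 8.75% lower. For NF-kB feedback genes and cytokines, 2 of 15 were higher and 2 lower at that p, with CXCL8, which encodes interleukin-8, at −0.15 and NFKB2 at 0.12. For angiogenic factors the counts were 3 higher and 1 lower of 15, with VEGFB at 0.13 and HIF1A at −0.067. For limb patterning genes they were 1 higher and 1 lower of 11, BMP7 at 0.12 and the Wnt inhibitor DKK1 at −0.15. DLX2, a homeobox gene, had a log2 difference of 0.14, which came from MDA-MB-157 (0.40) and was −0.0081 in MDA-MB-231 cells and 0.018 in MDA-MB-468, where DLX2 stood below 0.4 FPKM. The largest reach of an interval was 1.19 fold in the NF-kB list (CXCL8), 1.17 fold in the angiogenic list (THBS1) and 1.23 fold in the limb list (PITX1).

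Stress and metabolic lists are given by the same counts, which stood at 8.69% higher and 8.75% lower over all genes. NRF2 and oxidative stress genes had 3 of 15 higher, the autophagy receptor SQSTM1 (0.16) among them, and 1 lower, the cystine transporter SLC7A11 (−0.085). Stress response and unfolded protein response genes had 3 of 16 higher, CEBPB (0.13) and CHAC1 (0.14) among them, and 0 lower; after the G+C adjustment 0 were higher and 1 lower, and CEBPB stood at 0.022. Heat shock proteins had 3 of 12 higher and 2 lower, with BAG3 at 0.13 and HSPD1 at −0.084. After the G+C adjustment the NRF2 and the heat shock lists each had 1 higher and 0 lower. Over all 13951 genes so adjusted, 524 were higher and 665 lower. The p53 targets had 1 of 15 higher, the CDK inhibitor CDKN1A (0.12), and 4 lower, with MDM2 at −0.17 and PLK2 at −0.13. After the G+C adjustment 1 p53 target was higher and 4 were lower, and CDKN1A, then at 0.059, was not the higher one. Hypoxia and glycolysis genes had 2 of 15 higher and 1 lower, sterol synthesis genes 2 of 15 higher and 1 lower, and metallothioneins 1 of 5 higher (MT2A, 0.19) and 0 lower. Aryl hydrocarbon receptor targets had 2 of 8 higher, CYP1B1 (0.17) and CYP1A1 (0.19), and 0 lower. For both genes the treatment groups overlapped in MDA-MB-231 cells, and for CYP1A1 also in MDA-MB-157 cells. Interferon response genes had 1 of 15 higher (IRF7, 0.25) and 1 lower (IFIT3, −0.096).

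Growth and matrix lists completed the set, counted at an unadjusted p below 0.05. Over all genes that share was 8.69% higher and 8.75% lower. YAP and serum response genes had 2 of 16 higher and 1 lower, TGF-beta, BMP and ID genes 1 of 14 higher (TGFB1, 0.27) and 3 lower, hyaluronan and matrix genes 1 of 11 higher and 1 lower, G1 cyclins and CDKs 1 of 12 higher and 1 lower, and histone genes 1 of 14 higher and 0 lower. The hyaluronan synthase HAS2 was the lower matrix gene (−0.21), with 6.57 and 7.01 FPKM with DMSO and 4.79 and 5.06 FPKM with Thalidomide in MDA-MB-157 cells. It stood at 7.79 and 7.71 against 6.38 and 6.53 FPKM in MDA-MB-231 cells and was at or near 0 in MDA-MB-468. TGFB1 stood at 5.82 and 5.56 against 8.60 and 5.21 FPKM in MDA-MB-231 cells, where the groups overlapped and 1 library carried the difference. In MDA-MB-468 TGFB1 was low, at 1.29 and 1.25 against 1.66 and 1.79 FPKM. Of 14 genes known to respond to BET inhibitors, 4 were higher and 1 lower. SERTAD1 stood at 0.21, BRD2 at 0.10 and HEXIM1, the inhibitor of the elongation factor P-TEFb, at 0.10. After the G+C adjustment 3 of the 14 were higher and 1 lower, beside 524 higher and 665 lower of 13951 genes. The list held MYC, whose log2 difference was 0.057 with an interval of −0.041 to 0.15. MYC stood at 25.3 and 24.01 against 27.9 and 27.1 FPKM in MDA-MB-157 cells, at 78.5 and 78.6 against 69.1 and 81.4 FPKM in MDA-MB-231 cells and at 59.4 and 58.9 against 62.5 and 63.0 FPKM in MDA-MB-468.

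**Figure D5:**
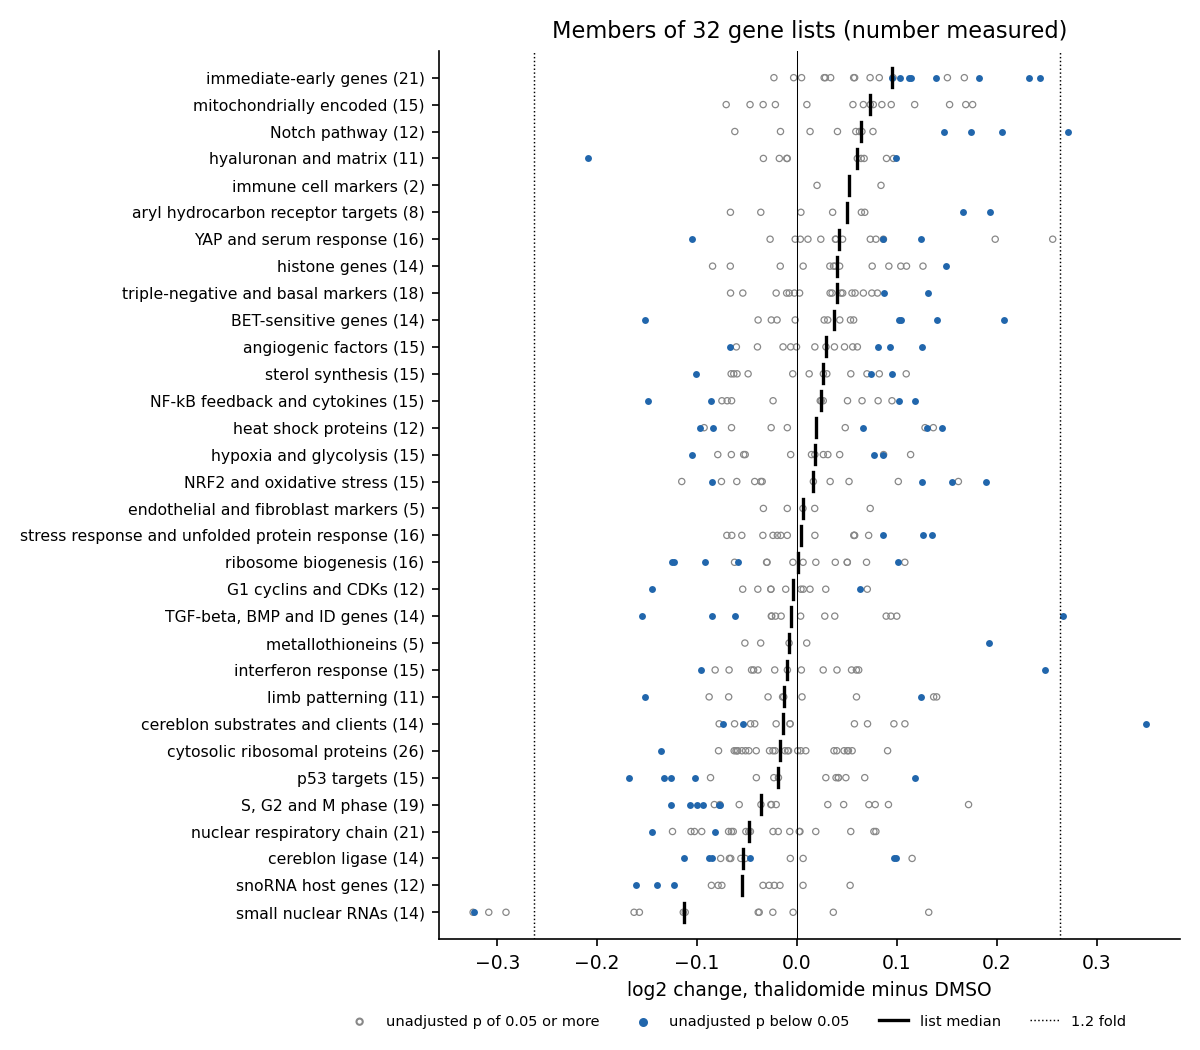
Each row is a gene list with the number of members measured, each point a member's log2 difference between Thalidomide and DMSO, blue at an unadjusted p below 0.05, and the black bar the list median. Medians run from −0.11 in small nuclear RNAs to 0.095 in immediate-early genes, and few points pass the dotted lines at 1.2 fold.

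The difference with Thalidomide was also compared between lines. No gene passed the test of the line by treatment interaction (limma F test, lowest adjusted p 0.387, 0% called), and 352 genes (2.49%) stood at an unadjusted p below 0.05. Among the genes of the 5 FPKM minimum, FTH1, the ferritin heavy chain that stores iron, had the smallest interaction p (0.000139, adjusted p = 0.978, limma). It stood at 80.0 and 73.9 FPKM with DMSO and at 102 and 97.7 FPKM with Thalidomide in MDA-MB-157 cells, and at 231.01 and 223.6 against 284 and 296 FPKM in MDA-MB-468. In MDA-MB-231 the order was the other way, with 81.6 and 89.4 against 69.5 and 75.3 FPKM. The groups were apart in each line. FTH1 has processed pseudogenes of near-identical sequence, which make its values uncertain. The next genes were the spliceosomal RNU5A-1 and snoU2-30, both short RNAs.

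The smallest steps between low values put the depth at 51400000 to 63800000 fragments a library, an estimate from few genes and not a deposited count, and library composition showed where the 12 libraries differed. The mitochondrially encoded genes took 7.18% to 13.99% of the FPKM sum, with a mean difference between treatments of 0.237 percentage points (exact permutation within lines, p = 0.769). In MDA-MB-231 the 2 Thalidomide libraries had shares of 13.99% and 9.79%, on either side of 12.1% and 12.5% in the DMSO libraries, and their log2 values correlated at 0.9919 against 0.9964 to 0.9984 in the 3 DMSO pairs. The 15 mitochondrially encoded genes had 0 members at an unadjusted p below 0.05, beside 17.4% of all genes. The median of the 15 was 0.38 in MDA-MB-157 cells, −0.17 in MDA-MB-231 cells and −0.087 in MDA-MB-468. By the same exact permutation test, the share of 26 ribosomal protein genes had a p of 0.926, that of 14 small nuclear and related RNAs one of 0.472 and the median FPKM one of 0.278. The part of these library differences in the results above was not tested.

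Cell markers were checked against the labels. ERBB2, the HER2 gene, stood at 11.6 to 19.2 FPKM in all libraries, and ESR1 and PGR were not analysed here. The basal keratins KRT5 and KRT17 stood at 698 to 793 and at 920 to 1079 FPKM in MDA-MB-468 and below 1 FPKM in both other lines. CAV1, a marker on the same list, stood at 164 to 172 FPKM in MDA-MB-468. It was at 226 to 239 FPKM in MDA-MB-157 and at 325 to 372 FPKM in MDA-MB-231. The 2 keratins alone therefore do not decide the basal label of the other lines. Of 18 such markers measured, 2 were higher and 0 lower at an unadjusted p below 0.05, beside 8.69% and 8.75% of all genes. Of 7 immune markers, CD14 and CSF1R were measured, and of 10 endothelial and fibroblast markers 5 were. Of these 7 measured genes, 0 stood at an unadjusted p below 0.05 in either direction, beside 17.4% of all genes. Levels of the 7 differed by line. In MDA-MB-157, CD14 stood at 50.9 to 59.8 FPKM and CSF1R at 3.04 to 3.84 FPKM. There LUM stood at 53.2 to 57.8, DCN at 15.9 to 17.6 and KDR at 1.49 to 1.84 FPKM. All of these named genes were below 1 FPKM in both other lines. Levels of the remaining measured markers are not given here. The source of these transcripts in MDA-MB-157 was not tested.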

How the data were processed

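Total RNA depleted of ribosomal RNA was sequenced, per the labels' protocols. The authors deposited 1 table of 14114 genes and 24 columns that name line, treatment and replicate. Its unit is not stated; the values behave as FPKM, and the deposited FPKM values were used as they stand, so read counts were not tested. The lowest value above 0 of 745 genes with a 0 fell with transcript length (Spearman −0.527 across genes). The submitters' processing notes name bcl2fastq 2.17.1.14, Bowtie 0.12.8 and GRCh38.p5, and the counter is not given in the sources used here.

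On log2(FPKM + 1), limma 3.58.1 in R 4.3.3 fitted line plus treatment to 12 libraries (variance trend, 8 residual degrees of freedom, prior 3.37), with Benjamini-Hochberg adjustment over all genes, 95% intervals, and an F test of the interaction. Library measures other than the G+C slope were tested by exact permutation within lines. The fit was tested on simulated data. G+C content came from GENCODE 29 transcripts (13951 genes matched); the G+C adjustment subtracted a loess curve (span 0.3) from each library's deviations and was chosen after seeing the data. The 32 gene lists, the members and the naming rule (10 genes a direction by smallest p where none is called, at least 5 FPKM and 1 sign in 3 lines; 3 by interaction; up to 3 a list; fixed genes) were chosen with earlier results of these data known; genes with extreme values or intervals were added after their values were seen. Of the genes the rule names, 2 are not reported here, 1 in each direction. Columns of other series numbered 0. Alternatives changed the pseudocount, filter, scaling, model, block and libraries.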

Additional observations from a re-analysis of the deposited data

Results flagged for a closer look

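In 2 of the named genes all libraries of 1 line moved against all libraries of another. FTH1 had a log2 difference between Thalidomide and DMSO of 0.37 in MDA-MB-157 cells, −0.24 in MDA-MB-231 cells and 0.35 in MDA-MB-468, with the groups apart in each line. The short RNA snoU2-30 had log2 differences of −0.39 in MDA-MB-157 cells, −0.91 in MDA-MB-231 cells and 0.48 in MDA-MB-468, again with the groups apart in each line. Both were picked for a small interaction p, and neither passed that test after adjustment (limma F test, adjusted p = 0.978 for FTH1 and 1 for snoU2-30), so that the difference in direction between pairs of lines was not tested further.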

How the results depend on the processing

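No gene was called in the 12 libraries under another pseudocount, the 5 FPKM minimum, any of 4 other scalings, group means, no variance trend, robust fitting or the G+C adjustments. Calls appeared in 3 settings. With the residual spread taken from 24 libraries, 223 genes were called (146 higher, 77 lower), all 223 among the 2461 at an unadjusted p below 0.05, with median G+C contents of 60.9% and 41.9%. Without MDA-MB-231 Thalidomide replicate 2, 818 were called, 720 of them among the 2461, with median G+C contents of 59.4% (higher) and 41.2% (lower), and 289 passed the interaction test; leaving out any other library gave 0 in both. Without MDA-MB-231 the call was 1 gene, FTH1. The cause of these differences was not tested.

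The number of genes within 1.5 fold, 13960 of 14114 in the main fit, left 154 outside and had little room to rise. It was 13612 with 0.1 added in place of 1, 13744 without MDA-MB-157 and 13768 without MDA-MB-468. With the 5 FPKM minimum it was 9521 of 9563 genes. The G+C slope difference ran from 0.045 to 0.084 without 1 library, and was 0.087, 0.059 and 0.048 without MDA-MB-231, MDA-MB-157 and MDA-MB-468. Signs turned for 4 named genes. DDB1 was 0.0020 with column totals scaling, 0.0059 with quantile normalization, 0.0063 without MDA-MB-231, and −0.033 to 0.026 without 1 library. CUL4A was −0.0013 with median of ratios scaling, −0.0086 without MDA-MB-468, and −0.0065 to 0.022 without 1 library. AMOTL2, at 0.086 before, was −0.014 after G+C adjustment with and without the block, and snoU2-30, at −0.27 over 3 lines, was 0.047 without MDA-MB-231.

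With the replicate number as a block within each line, 0 genes were called (lowest adjusted p 0.262, limma) and 0 passed the interaction test. Same-numbered libraries deviated together with r = −0.11, 0.13 and 0.33 across genes in the 3 lines, so the numbers were not taken as pairs.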
